A study of Mus musculus with 8 samples.

Results

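The genes of prostaglandin and leukotriene synthesis and of the prostaglandin E2 receptors were followed in splenic conventional dendritic cells, the antigen-presenting cells of the spleen that take up and display antigen to T cells. The members were 10 genes, 7 of them for synthesis (Ptgis, Ptgs1, Ptgs2, Ptges, Alox5, Alox5ap and Ltc4s) and 3 for receptors (Ptger2, Ptger3 and Ptger4). All probe sets that the array annotation gives under those symbols were taken, 14 of 45101, and they covered 9 of the 10 genes. Ptgs1 had no probe set under its symbol and was not analysed here. The set was chosen by the measured difference of Ptgis and Ptger3 between CD8α+ and CD8α- cells, so that difference is described for these genes without a test.

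The cells came from spleens of untreated female C57BL/6 mice, 10 weeks old per the labels, either wild type or RAG2-/-. RAG2 is needed to assemble antigen receptor genes, and mice without it have no mature T or B lymphocytes. Cells of each genotype were sorted as CD8α+ or CD8α-, which gave 4 groups of 2 arrays: wild type CD8α+, wild type CD8α-, RAG2-/- CD8α+ and RAG2-/- CD8α-. The series title asks how T and B lymphocytes influence antigen presentation by these cells. The labels do not say whether the replicates came from separate mice or pools, and the p-values then measure only the spread between these arrays, which may be technical.

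Levels are log2 expression values as deposited, given for replicate 1 and then replicate 2, and 5 is the value below which a probe set was treated as not above background. A gene was tested when a probe set reached 5 on at least 2 of the 8 arrays, which 5 of the 9 member genes and 8763 genes in all did. Replicates correlated at r = 0.989 to 0.995 over all probe sets, which are not independent of each other. All RAG2-/- arrays shared 1 lowest value, 2.23, at 18217 to 18893 probe sets each, whereas on each wild type array 1 probe set held the lowest value, between 1.16 and 1.17. The genotypes were therefore evidently normalized apart, and genotype and processing cannot be told apart in any comparison between them. The sort was visible in its marker, since wild type Cd8a read 11.73 and 11.94 on the CD8α+ arrays against 5.80 and 6.10 on the CD8α- arrays. The RAG2-/- arrays read 12.31 and 12.51 against 6.90 and 7.70. In bulk samples such as these, fewer cells of a type and less RNA per cell cannot be told apart. Neutrophil markers were high on 1 array of each RAG2-/- group, with a log2 summed level of 11.6 in CD8α+ replicate 1 and 13.0 in CD8α- replicate 2, against 5.83 to 6.63 on the other arrays.

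Both pathways start from arachidonic acid, which phospholipases free from membranes. Cyclooxygenases (Ptgs1 and Ptgs2) turn it into prostaglandin H2, from which Ptgis makes prostacyclin and Ptges makes prostaglandin E2. In the other branch, 5-lipoxygenase (Alox5), helped by its activating protein (Alox5ap), makes leukotriene A4, and Ltc4s joins that to glutathione. Prostaglandin E2 acts on dendritic cells through its receptors: EP2 (Ptger2) and EP4 (Ptger4) raise cyclic AMP, whereas EP3 (Ptger3) mainly lowers it. Prostaglandin E2 is known as a modulator of dendritic cell maturation and migration.

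The promoters of the 3 receptor genes are shown because these relatives of one family had different patterns over the sorted cells. Each sequence holds the 250 bases before the gene's start in RefSeq (build GRCm38.p6), 5′ to 3′ on the gene's own strand: Ptger2 at chr14:44987861-44988110 (+ strand), Ptger3 at chr3:157566626-157566875 (+ strand) and Ptger4 at chr15:5244188-5244437 (- strand). Capitals mark matches to 2 motifs, the CCAAT box (CCAAT) and the GC box (GGGCGG), on either strand.
Ptger2: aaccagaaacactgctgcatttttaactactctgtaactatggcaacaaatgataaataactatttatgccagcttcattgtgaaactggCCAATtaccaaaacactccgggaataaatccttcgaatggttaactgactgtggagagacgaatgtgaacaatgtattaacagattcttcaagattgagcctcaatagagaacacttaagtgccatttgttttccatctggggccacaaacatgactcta
Ptger3: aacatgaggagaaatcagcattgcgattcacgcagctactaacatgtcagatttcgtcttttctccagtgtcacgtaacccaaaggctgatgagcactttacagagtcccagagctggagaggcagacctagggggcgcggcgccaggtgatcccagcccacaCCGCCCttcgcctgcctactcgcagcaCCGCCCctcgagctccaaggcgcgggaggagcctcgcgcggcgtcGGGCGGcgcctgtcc
Ptger4: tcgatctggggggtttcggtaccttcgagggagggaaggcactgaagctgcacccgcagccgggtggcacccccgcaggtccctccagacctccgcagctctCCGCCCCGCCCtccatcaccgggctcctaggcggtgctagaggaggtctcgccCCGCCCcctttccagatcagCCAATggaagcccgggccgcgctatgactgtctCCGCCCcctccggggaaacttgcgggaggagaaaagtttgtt

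The Ptger2 promoter was poor in G and C, at 38% of its bases, while that of Ptger3 had 62% and that of Ptger4 66.8%, against a median of 52.4% over the 32851 promoters of the table. The window of Ptger2 held 1 CCAAT box, 160 bases before the start, and no GC box. That of Ptger3 held 3 GC boxes, 87, 60 and 15 bases before the start, and no CCAAT box. That of Ptger4 held 1 CCAAT box, 75 bases before the start, and 4 GC boxes, a pair of which share a base. Such matches are common, since 33.8% of all promoters held a CCAAT box and 32.7% a GC box in a window of this length. The same search found no cyclic AMP response motif (TGACG, in 17.8% of promoters) and no AP-1 motif (TGANTCA, in 6.75%) in the 3 windows. These are letter matches and describe the windows only. Of the members, 8 of 10 matched an entry of the promoter table. Ptgis and Alox5ap were the others.

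Among the synthesis genes, transcripts for only prostacyclin synthase and the 5-lipoxygenase activating protein were above background. In wild type, Ptgis stood at 8.81 and 8.67 in CD8α+ and at 2.30 and 2.27 in CD8α- cells. In RAG2-/- mice it stood at 9.93 and 9.56 in CD8α+ cells and at 5.50 and 3.13 in CD8α- cells. The groups of each genotype did not overlap, and 1 of the 4 CD8α- arrays, RAG2-/- replicate 1, rose above background. In wild type the CD8α+ mean of 8.74 ± 0.10 (SD, n = 2) was at least 13.3-fold above the background level of 5, with CD8α- cells at 2.28 ± 0.02. The subset difference was 6.46 on the log2 scale (SE 0.65). In RAG2-/- cells the means were 9.74 ± 0.26 and 4.31 ± 1.67, a log2 difference of 5.43 (SE 0.65) that came to 6.61 without CD8α- replicate 1 and to 4.25 without CD8α- replicate 2. Because Ptgis was chosen on this difference, and passed the filter on dim probe sets through its CD8α+ arrays, the values stand as a description. Ptgis is best known from endothelium and vessel walls, so markers of those cells were read beside it: 12 of 12 endothelial and stromal markers were below 5 on all arrays, the highest value being 4.17. Their log2 summed level was 6.15 to 6.24 in wild type CD8α+ and 6.16 to 6.25 in wild type CD8α- cells. It was 5.86 to 5.88 in RAG2-/- CD8α+ and 5.86 to 6.12 in RAG2-/- CD8α- cells.

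Alox5ap, which presents arachidonic acid to 5-lipoxygenase, was bright on every array and varied little. Wild type arrays read 13.14 and 13.29 for CD8α+ and 12.98 and 12.93 for CD8α- cells. RAG2-/- arrays read 13.72 and 13.82 for CD8α+ and 13.84 and 13.73 for CD8α- cells. All RAG2-/- arrays were above all wild type arrays, and the RAG2-/- subsets overlapped. The subset difference was 0.25 in wild type (SE 0.16, 95% interval -0.13 to 0.64, limma adjusted p = 0.369). For RAG2-/- cells it was -0.02 (95% interval -0.40 to 0.37, limma adjusted p = 0.957). A difference between subsets larger than these intervals was not seen, though a p that misses the threshold does not show equal levels.

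The remaining synthesis members stayed below background on all 8 arrays, and so did a second Ptger3 probe set, making 8 probe sets. Each gives only an upper bound on its own signal and does not bound the transcript. The other Ptger3 probe set read 10.87 to 11.55 in CD8α- cells, where the second was dim. Ptgs2, the inducible cyclooxygenase, read 3.29 and 3.26 in CD8α+ cells of wild type mice and 3.62 and 3.80 in their CD8α- cells on its brighter probe set, the highest values of this group. On the RAG2-/- arrays that probe set read 2.23 to 2.31, at or next to the shared lowest value. Alox5, the 5-lipoxygenase itself, read 2.43 to 2.69 in wild type and 3.02 on each RAG2-/- array. All 3 probe sets of Ptges, the inducible prostaglandin E synthase, read between 1.98 and 2.26. Ltc4s, leukotriene C4 synthase, read 1.92 to 1.93 on the wild type arrays and 2.23 on the RAG2-/- arrays. Values this low have no order, so no subset or genotype difference was read from them. Alox5 is a textbook gene of neutrophils and mast cells, and Ltc4s of mast cells. Mast cell and basophil markers were below 5 on all arrays for 7 of 8 genes. The eighth, Kit, which many other cells also express, read 10.97 to 12.39. Alox5, read on a single probe set, was also below 5 on both arrays with neutrophil transcripts.

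**Figure D1:**
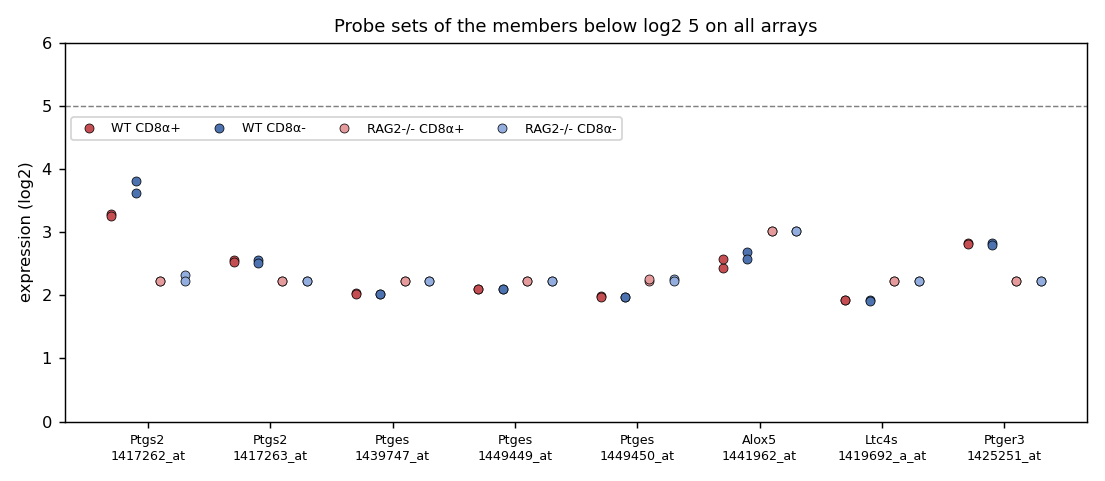
The log2 expression on each array (vertical axis) of the 8 member probe sets that stayed below 5, by probe set (horizontal axis); each point is 1 array, coloured by group, and the dashed line marks 5. Wild type points lie between 1.92 and 3.80 and RAG2-/- points between 2.23 and 3.02, most of the latter on 1 shared lowest value.

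The receptors for prostaglandin E2 were all above background, each with its own pattern over the subsets. Ptger2, the gene of EP2, read 8.32 and 8.31 in CD8α+ cells of wild type mice and 3.36 and 3.21 in their CD8α- cells. In RAG2-/- mice it stood at 8.55 and 9.15 in CD8α+ cells and at 3.06 and 5.34 in CD8α- cells. The subsets did not overlap in either genotype, and RAG2-/- CD8α- replicate 2 was the lone CD8α- array above background. In wild type the CD8α+ mean of 8.32 ± 0.01 (SD, n = 2) was at least 9.96-fold above background, and the log2 difference from CD8α- cells was 5.03 (SE 0.65, limma adjusted p = 0.00216). Because Ptger2 passed the filter on dim probe sets through its CD8α+ arrays, its subset differences and their p-values are read as a description only. In RAG2-/- cells the difference was 4.65 (SE 0.65, limma adjusted p = 0.00279), with an adjusted p of 0.0667 when those arrays were fitted alone. It came to 3.51 without CD8α- replicate 1 (limma adjusted p = 0.00149) and to 5.79 without CD8α- replicate 2 (limma adjusted p = 0.000290). On CD8α- replicate 2, markers of CD8α+ dendritic cells were also higher than on replicate 1 (log2 summed level over the 9 markers with a probe set 14.1 against 13.1). All 9 of them reached 5 on some array, and their sums were 15.7 to 16.2 in the CD8α+ groups and 12.3 to 12.6 in wild type CD8α- cells. Not every gene rose between these RAG2-/- CD8α- replicates. Of the markers, Ly75 read 7.86 and then 6.98, and Batf3 hardly differed (12.14 and 12.16). Ptgis, also high in CD8α+ cells, read 5.50 and then 3.13. The part of the markers in the Ptger2 value was not tested.

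Ptger3, the gene of EP3, ran the other way. Wild type arrays read 11.27 and 10.87 for CD8α- cells but 4.99 and 4.92 for CD8α+ cells. RAG2-/- arrays read 11.55 and 11.03 for CD8α- cells, and both CD8α+ arrays read 3.74. No CD8α+ array reached background, though the wild type ones lay just under it. The CD8α- mean was at least 67.1-fold above background in wild type (11.07 ± 0.28, log2 difference of CD8α+ less CD8α- cells -6.11, SE 0.23). For RAG2-/- cells it was at least 78.5-fold above background (11.29 ± 0.37, log2 difference -7.56, SE 0.23). This difference chose the gene, which passed the filter through its CD8α- arrays, and it was not tested. The other Ptger3 probe set read 2.79 to 2.82 in wild type and 2.23 on each RAG2-/- array, below background in both subsets, so the pattern rests on 1 probe set.

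Ptger4, the gene of EP4, was bright in every group. In wild type it stood at 11.96 and 12.14 in CD8α+ and at 11.05 and 11.68 in CD8α- cells. In RAG2-/- mice it stood at 11.67 and 11.71 in CD8α+ cells and at 11.17 on both CD8α- arrays. CD8α+ arrays were above CD8α- arrays within each genotype, and in wild type the gap between the groups was smaller than that between the CD8α- replicates. The log2 difference was 0.68 in wild type (SE 0.23, 95% interval 0.14 to 1.23, limma adjusted p = 0.0926), and it passed the test without wild type CD8α- replicate 2 (1.0, limma adjusted p = 0.0416) but came to 0.37 without wild type CD8α- replicate 1 (limma adjusted p = 0.368). The RAG2-/- value was 0.51 (95% interval -0.03 to 1.06, limma adjusted p = 0.162). The second Ptger4 probe set was dim, with 5.16 in wild type CD8α+ replicate 1 and 2.53 to 4.24 elsewhere. The equal values of both RAG2-/- CD8α- arrays do not measure precision, since 503 of the 14940 probe sets above background on both arrays of that group held identical values.

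Of the 3 members not chosen on the subset difference, Ptger2 alone passed the subset test: 1 of 3 in wild type, where 17.1% of all genes tested were called (9.23% higher and 7.87% lower in CD8α+ cells), and 1 of 3 in RAG2-/- cells, where 21.8% were called (11.1% higher and 10.7% lower). With so few members, and a filter that Ptger2 passed through its CD8α+ arrays, nothing about the set is read from these counts. The median subset difference over all genes tested was 0.01 in wild type and 0.02 in RAG2-/- cells.

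**Figure D2:**
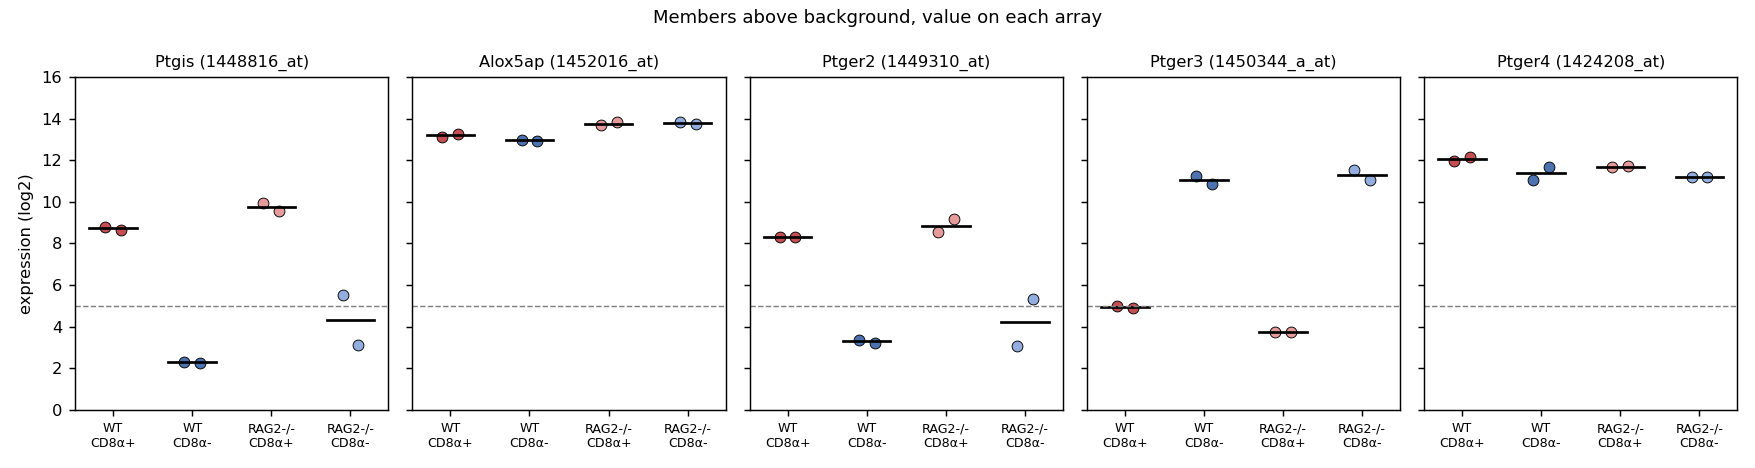
The log2 expression on each array (vertical axis) of the 5 members above background, by group (horizontal axis); points are arrays, bars the mean of 2 arrays, and the dashed line marks 5. Ptgis and Ptger2 are high in CD8α+ cells and Ptger3 in CD8α- cells, while Alox5ap (12.93 to 13.84) and Ptger4 (11.05 to 12.14) are bright in all groups.

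Between genotypes, Alox5ap rose in RAG2-/- cells of both subsets. The log2 difference was 0.83 in CD8α- cells, a 1.78-fold rise (SE 0.16, limma adjusted p = 0.00793), and each of its 19 alternative settings kept it past the threshold. In CD8α+ cells it was 0.56, a 1.47-fold rise (SE 0.16, limma adjusted p = 0.0344), and 10 of 19 alternatives kept it (adjusted p from 0.00111 to 0.129). Leaving out any 1 of the wild type arrays or of the RAG2-/- CD8α+ arrays took it past 0.05, with adjusted p from 0.0570 to 0.129. Without both arrays that held neutrophil transcripts, the differences were 0.88 (limma adjusted p = 0.0289) and 0.61 (limma adjusted p = 0.0678). Macrophage and monocyte markers were also higher in RAG2-/- cells by their summed level, and all 11 with a probe set reached 5 on some array. Their log2 summed level was 12.6 to 13.0 in wild type CD8α+, 13.3 to 13.6 in wild type CD8α-, 13.8 to 14.1 in RAG2-/- CD8α+ and 15.5 to 15.6 in RAG2-/- CD8α- cells. Vcam1 did not rise in CD8α+ cells, at 11.64 and 12.36 in wild type against 11.58 and 11.35 in RAG2-/- mice. B cell markers were lower in RAG2-/- cells by their summed level, and 5 of the 7 with a probe set reached 5 on some array. Their log2 summed level was 11.3 to 12.1 on wild type arrays and 8.05 to 8.70 on RAG2-/- arrays. Among them, Cd79b still read 8.29 and 7.48 in RAG2-/- CD8α- cells, against 9.27 and 8.59 in wild type ones. The part of either set of markers in the Alox5ap difference, or in other genotype differences, was not tested.

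Ptgis was higher in RAG2-/- than in wild type CD8α- cells by 2.03 (SE 0.65, limma adjusted p = 0.0438), a call that 9 of 19 alternatives kept. It rests on replicate 1 of the RAG2-/- group: without that array the difference was 0.85 (limma adjusted p = 0.0382), at levels below background on every array left. Without replicate 2 the difference was 3.21 (limma adjusted p = 0.00167). Leaving out any 1 of the other 6 arrays gave an adjusted p from 0.0701 to 0.158, and with values below 5 set to 5 the difference was 0.25 (limma adjusted p = 0.400). In CD8α+ cells Ptgis differed by 1.0 (SE 0.65, limma adjusted p = 0.264), and under 5 of 19 alternatives it passed the test. These included the compared groups alone (SE 0.20, limma adjusted p = 0.0326) and values below 5 set to 5 (limma adjusted p = 0.0144). That difference passed the test when either RAG2-/- CD8α- array was left out (limma adjusted p = 0.0109, SE 0.19). All RAG2-/- CD8α+ arrays lay above all wild type ones.

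With the values as deposited and all arrays, no prostaglandin E2 receptor had a genotype difference that both passed the test and lay above background. Ptger2 differed by 0.91 in CD8α- cells (limma adjusted p = 0.291), and by -0.23 there without RAG2-/- replicate 2. Without replicate 1 the value was 2.05 (limma adjusted p = 0.00721). In CD8α+ cells Ptger2 differed by 0.53 (limma adjusted p = 0.547), and it passed there without both arrays with neutrophil transcripts (0.84, limma adjusted p = 0.0363). That value is the same without RAG2-/- CD8α+ replicate 1 alone (0.84, limma adjusted p = 0.496), and it was 0.23 without CD8α+ replicate 2. Ptger3 in CD8α- cells, where it is high, differed by 0.23 (95% interval -0.32 to 0.77, limma adjusted p = 0.464), and it turned to -0.034 without RAG2-/- replicate 1. It passed the test at 0.88 when each array was centred on its median (limma adjusted p = 0.0109). In CD8α+ cells Ptger3 passed the test at -1.22 (limma adjusted p = 0.00801), but all 4 arrays were below 5, so no fold is given. Ptger4 differed by -0.19 in CD8α- cells (95% interval -0.74 to 0.35, limma adjusted p = 0.534) and by -0.36 in CD8α+ cells (95% interval -0.91 to 0.18, limma adjusted p = 0.255). Both Ptger4 values turned positive, to 0.47 and 0.31, with the same centring, a step that moves RAG2-/- against wild type values by 0.66 in CD8α- and 0.67 in CD8α+ cells.

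In CD8α- cells 2 of the 5 members tested were called between genotypes, where 40.5% of all genes were (23.4% higher and 17.1% lower in RAG2-/- cells). In CD8α+ cells 2 of 5 were called, where 36.9% of all genes were (20.8% higher and 16.1% lower). These shares are near the background and are no result about the members. The balance of the calls over all genes depends on the scaling: with each array centred on its median, 4798 of 5301 called genes were higher in RAG2-/- CD8α- cells and 4660 of 5106 in RAG2-/- CD8α+ cells. Without a filter on dim probe sets, 3853 of 10923 and 3630 of 10678 called genes were higher. The median genotype difference over all genes tested was 0.14 in CD8α- and 0.09 in CD8α+ cells.

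The subset difference itself was compared between genotypes by the interaction, the RAG2-/- difference less the wild type one. An offset shared by all arrays of a genotype cancels in it. A processing difference that varies with level, such as the shared lowest value of the RAG2-/- arrays, need not cancel. None of the 5 members was called by limma, and 1 (Ptger3) had an unadjusted p under 0.05. Over all genes 0.24% were called (0.0799% higher and 0.16% lower). Ptger3 had an interaction of -1.44 (SE 0.33, limma adjusted p = 0.273), which came to -0.23 with values below 5 set to 5. The interaction was -1.03 for Ptgis (limma adjusted p = 0.870) and -0.38 for Ptger2 (95% interval -2.53 to 1.78, limma adjusted p = 0.960). It was -0.27 for Alox5ap (limma adjusted p = 0.869) and -0.17 for Ptger4 (limma adjusted p = 0.945). The intervals of Ptgis and Ptger2 are wide because their RAG2-/- CD8α- replicates differed by over 2 log2 units.

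The genes whose levels followed Ptgis most closely over the 8 arrays were Agpat3, an acyltransferase of phospholipid synthesis (Pearson r = 0.984), Insig2, a regulator of sterol synthesis (r = 0.982), and Ctnnbip1, an inhibitor of β-catenin (r = 0.982). Agpat3 had group means of 9.62 in wild type CD8α+, 7.21 in wild type CD8α-, 10.11 in RAG2-/- CD8α+ and 8.00 in RAG2-/- CD8α- cells. Those nearest to Ptger3 were Slfn8, a Schlafen family gene (r = 0.997), Abcb1a, a drug efflux pump (r = 0.995), and St8sia6, a sialyltransferase (r = 0.993). Abcb1a had group means of 6.41, 11.03, 5.30 and 11.08 in the same order. The arrays fall into 2 subsets, so any gene with a clear subset difference scores high here.

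The rest of the pathway was read from lists of 48 other genes, of which 43 had a probe set and 14 were tested. None of the 6 other prostanoid receptor genes and none of the 6 other lipoxygenase genes reached 5 on 2 arrays, whereas all 3 receptor members did. In wild type 4 of the 14 genes were higher and 4 lower in CD8α+ cells, with a median difference of -0.15, beside the 9.23% higher and 7.87% lower of all genes. Among RAG2-/- cells 2 were higher and 5 lower, with a median of -0.33, beside 11.1% and 10.7% of all genes. Some of the 14 passed the filter on dim probe sets through the group where they are high, so these counts describe the list and support nothing.

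Of the 10 listed phospholipase genes 2 were tested, and both were lower in CD8α+ cells. Pla2g4a, the cytosolic phospholipase A2 that releases arachidonic acid, stood at 7.55 and 6.93 in wild type CD8α+ and at 8.79 and 8.76 in wild type CD8α- cells. Its RAG2-/- values were 7.99 and 7.61 in CD8α+ against 9.54 and 9.51 in CD8α- cells. The subsets did not overlap, and the log2 difference was -1.53 in wild type (SE 0.24, limma adjusted p = 0.00561) and -1.73 in RAG2-/- cells (limma adjusted p = 0.00303). Pla2g7, which inactivates platelet-activating factor, was also lower, by -2.66 (limma adjusted p = 0.00221) and -2.52 (limma adjusted p = 0.00258).

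On the prostanoid side, Tbxas1, the thromboxane synthase, stood at 7.43 and 8.02 in wild type CD8α+ and at 5.94 and 6.20 in wild type CD8α- cells. It was higher in CD8α+ cells by 1.66 in wild type (SE 0.27, limma adjusted p = 0.00596) and by 1.36 in RAG2-/- cells (limma adjusted p = 0.0121). Leaving out wild type CD8α- replicate 1 ended the wild type call (1.52, limma adjusted p = 0.0589). Leaving out RAG2-/- CD8α+ replicate 1 (1.14, limma adjusted p = 0.0718) or CD8α- replicate 2 (1.21, limma adjusted p = 0.0510) ended the other, and leaving out both gave 1.0 (limma adjusted p = 0.152). The platelet markers read beside this textbook platelet enzyme were below 5 on all arrays for 5 of 7 genes, the highest value being 6.00. Abcc4, a pump that exports prostaglandins, was higher in CD8α+ cells by 0.95 (limma adjusted p = 0.0118) and 1.08 (limma adjusted p = 0.00599). The first of these was lost without wild type CD8α+ replicate 2 (0.84, limma adjusted p = 0.0702) or CD8α- replicate 1 (0.83, limma adjusted p = 0.0823), and the second without both arrays with neutrophil transcripts (1.10, limma adjusted p = 0.0579). Cbr1, a carbonyl reductase that acts on prostaglandins, was higher by 0.61 in wild type CD8α+ cells (limma adjusted p = 0.0461). That call was kept by 3 of 18 alternatives and by no set of 7 arrays. Wild type arrays read 5.32 and 5.21 for CD8α+ cells and 4.63 and 4.68, below background, for CD8α- cells. With values below 5 set to 5 the Cbr1 difference was 0.27 (limma adjusted p = 0.292). Ptgr2, a prostaglandin reductase, had group means of 7.93 to 8.35 on its brightest probe set and did not pass a test there.

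Hpgd, the enzyme that inactivates prostaglandins, rose in RAG2-/- cells of both subsets. It stood at 9.07 and 9.22 in wild type CD8α+, at 9.55 and 9.82 in wild type CD8α-, at 10.51 and 10.17 in RAG2-/- CD8α+ and at 13.03 and 12.32 in RAG2-/- CD8α- cells. The groups did not overlap, and the RAG2-/- CD8α- arrays were highest. The subset difference was -0.54 in wild type (limma adjusted p = 0.246) and -2.33 in RAG2-/- cells (SE 0.27, limma adjusted p = 0.00137). Their difference, the interaction of -1.79 (SE 0.39), did not pass (limma adjusted p = 0.245). Against wild type, Hpgd was higher in RAG2-/- CD8α- cells by 2.99 (limma adjusted p = 0.000714) and in RAG2-/- CD8α+ cells by 1.20 (limma adjusted p = 0.0150). The latter was lost without either wild type CD8α+ array or without RAG2-/- CD8α+ replicate 1 (adjusted p from 0.0541 to 0.0822). Its dimmer probe set reached 5 on a single array, RAG2-/- CD8α- replicate 1, at 6.42. Macrophage markers were highest in the same group, and their part in the Hpgd values was not tested.

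On the leukotriene side, Lta4h, which makes leukotriene B4, stood at 10.63 and 10.72 in wild type CD8α+ and at 11.62 and 11.41 in wild type CD8α- cells. Its RAG2-/- values were 10.54 and 10.88 in CD8α+ against 12.16 and 12.17 in CD8α- cells. It was lower in CD8α+ cells by -0.84 in wild type (SE 0.19, limma adjusted p = 0.0221) and by -1.45 in RAG2-/- cells (limma adjusted p = 0.00209). The wild type call was lost without any 1 of the 4 wild type arrays (adjusted p from 0.0690 to 0.133). A second probe set, tested on its own among 14603 probe sets, gave -1.66 (limma adjusted p = 0.0141) and -3.21 (limma adjusted p = 0.000992). Cyp4f18, which degrades leukotriene B4, was lower in CD8α+ cells by -1.94 (limma adjusted p = 0.00184) and -2.53 (limma adjusted p = 0.000582). Abcc1, the leukotriene C4 exporter, had group means of 10.06 to 10.64 and did not pass a test.

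Cysltr1, a cysteinyl leukotriene receptor, read 7.59 and 6.77 in CD8α+ cells of wild type mice and 5.10 and 5.25 in their CD8α- cells. In RAG2-/- mice it stood at 8.70 and 7.26 in CD8α+ and at 7.93 and 8.20 in CD8α- cells. The wild type subsets were apart and the RAG2-/- subsets overlapped. The subset difference was 2.0 in wild type (SE 0.47, limma adjusted p = 0.0274), lost without any 1 of the 4 wild type arrays (adjusted p from 0.0622 to 0.153), and -0.09 in RAG2-/- cells (limma adjusted p = 0.922). The interaction of -2.09 did not pass (limma adjusted p = 0.497). In CD8α- cells Cysltr1 was 2.89 higher in RAG2-/- than in wild type mice (limma adjusted p = 0.00422). The second Cysltr1 probe set stayed below 5 on all arrays, its highest value being 4.96, so the pattern rests on 1 probe set.

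The 3 probe sets of Ggt5, an enzyme that converts leukotriene C4 to D4, disagreed. The dimmer pair was lower in CD8α+ cells by -3.31 and -4.51 in wild type and by -5.05 and -5.03 in RAG2-/- cells. The brightest one, which stood for the gene by the rule, differed by -0.53 and -0.38 between subsets and by 3.75 and 3.90 between genotypes (limma adjusted p = 0.000414 and 0.000482). Its name carries an x, which marks probes that may also bind other transcripts. It reached 5 on 5 arrays, of which 4 were RAG2-/-, and so passed the filter mainly through the genotype where it is high. The dimmer pair reached 5 on the 4 CD8α- arrays alone, and so passed only through the subset where it is high. These Ggt5 differences stand as a description, given by probe set and not as 1 value.

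Against wild type, 8 of the 14 genes were higher in RAG2-/- CD8α- cells and none lower, with a median of 0.81, where 23.4% of all genes were higher and 17.1% lower and the median was 0.14. In CD8α+ cells 4 were higher and none lower, with a median of 0.68, where 20.8% of all genes were higher and 16.1% lower and the median was 0.09. Both counts include Ggt5 by its brightest probe set, and the first includes Fpr2. These passed the filter mainly or only through RAG2-/- arrays. Genotype and processing cannot be told apart here either, so the counts describe the list and support nothing. Beside Hpgd, Cysltr1 and Ggt5, the 8 were Tbxas1 (1.25, limma adjusted p = 0.0105), Cbr1 (1.10, limma adjusted p = 0.00319), Lta4h (0.65, limma adjusted p = 0.0298), Pla2g4a (0.75, limma adjusted p = 0.0454) and Fpr2. Fpr2, the lipoxin and formyl peptide receptor, stood at 5.06 and 6.84 in RAG2-/- CD8α- cells and at 2.42 and 3.11 in wild type ones. It reached 5 on 3 arrays, all of them RAG2-/-, and so passed the filter only through the genotype where it is high. Its difference of 3.19 (limma adjusted p = 0.0259) is therefore given as a description, and the adjusted p was 0.0528 without a filter. Its higher value fell on the array with the highest neutrophil markers, and without both such arrays the difference was 2.30. Leaving out single arrays ended the calls of Pla2g4a (adjusted p up to 0.154), Lta4h (up to 0.139), Fpr2 (up to 0.140) and Tbxas1 (1.12 without wild type CD8α- replicate 1, limma adjusted p = 0.0728). In CD8α+ cells the other called genes were Tbxas1 (0.95, limma adjusted p = 0.0301, up to 0.150 with an array left out) and Cbr1 (0.90, limma adjusted p = 0.00710). Both wild type CD8α- arrays of Cbr1 were below background (4.63 and 4.68), which limits its difference of 1.10. None of the 14 passed the interaction test.

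**Figure D3:**
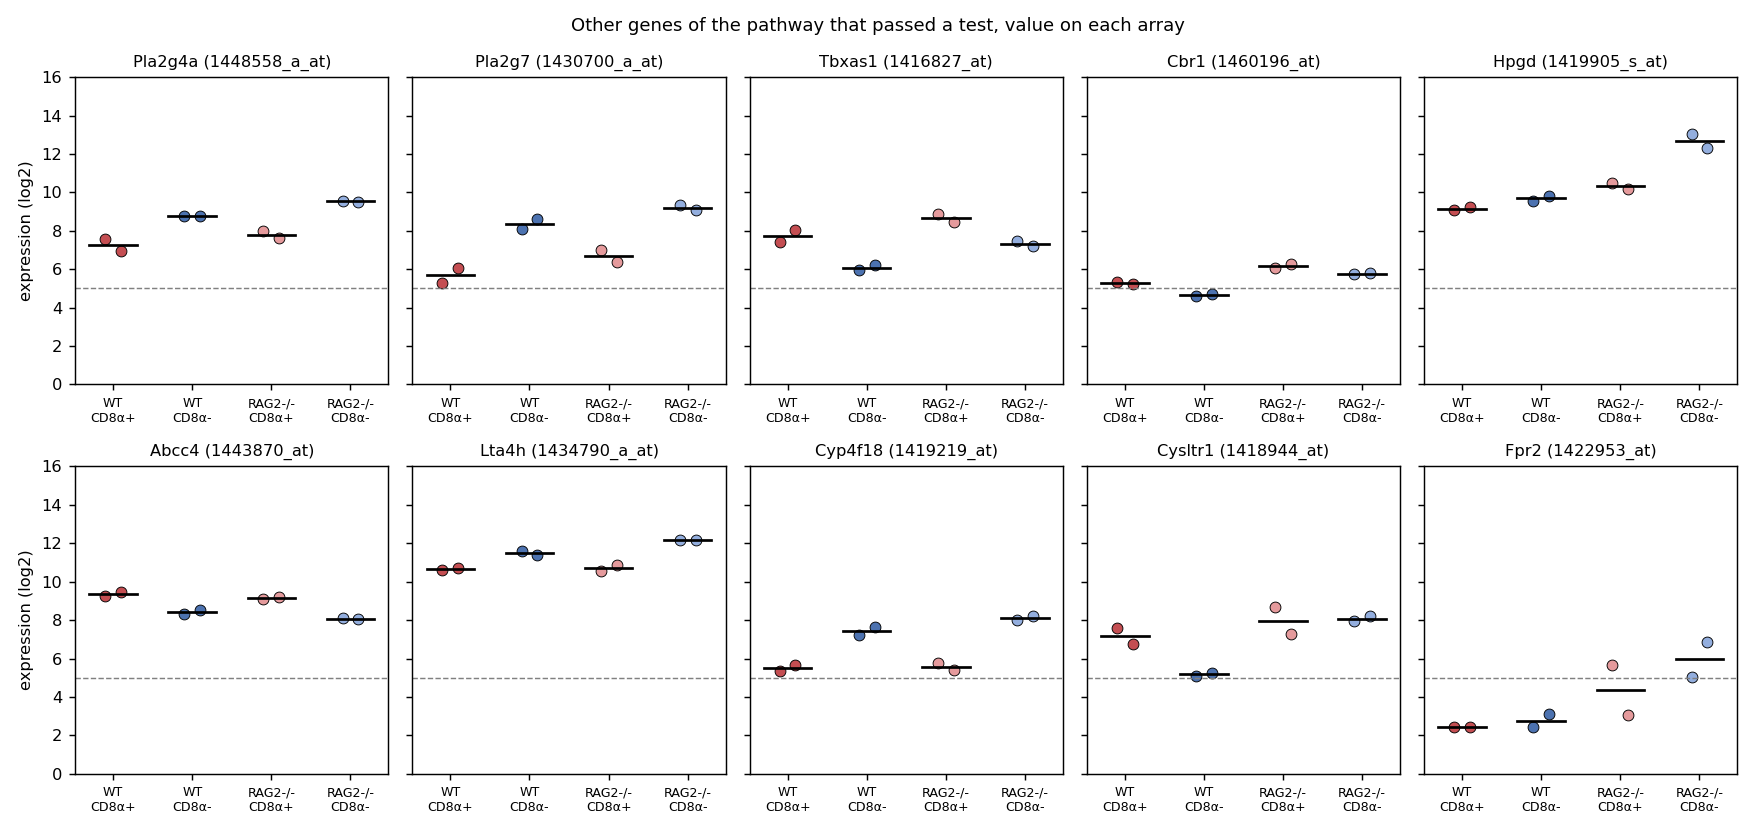
The log2 expression on each array (vertical axis) of 10 other pathway genes that passed a test, by group (horizontal axis); points are arrays, bars the mean of 2 arrays, and the dashed line marks 5. Ggt5 is left out because its probe sets disagree; Hpgd is highest in RAG2-/- CD8α- cells (12.32 and 13.03), and Cysltr1 is lowest in wild type CD8α- cells (5.10 and 5.25).

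**Figure D4:**
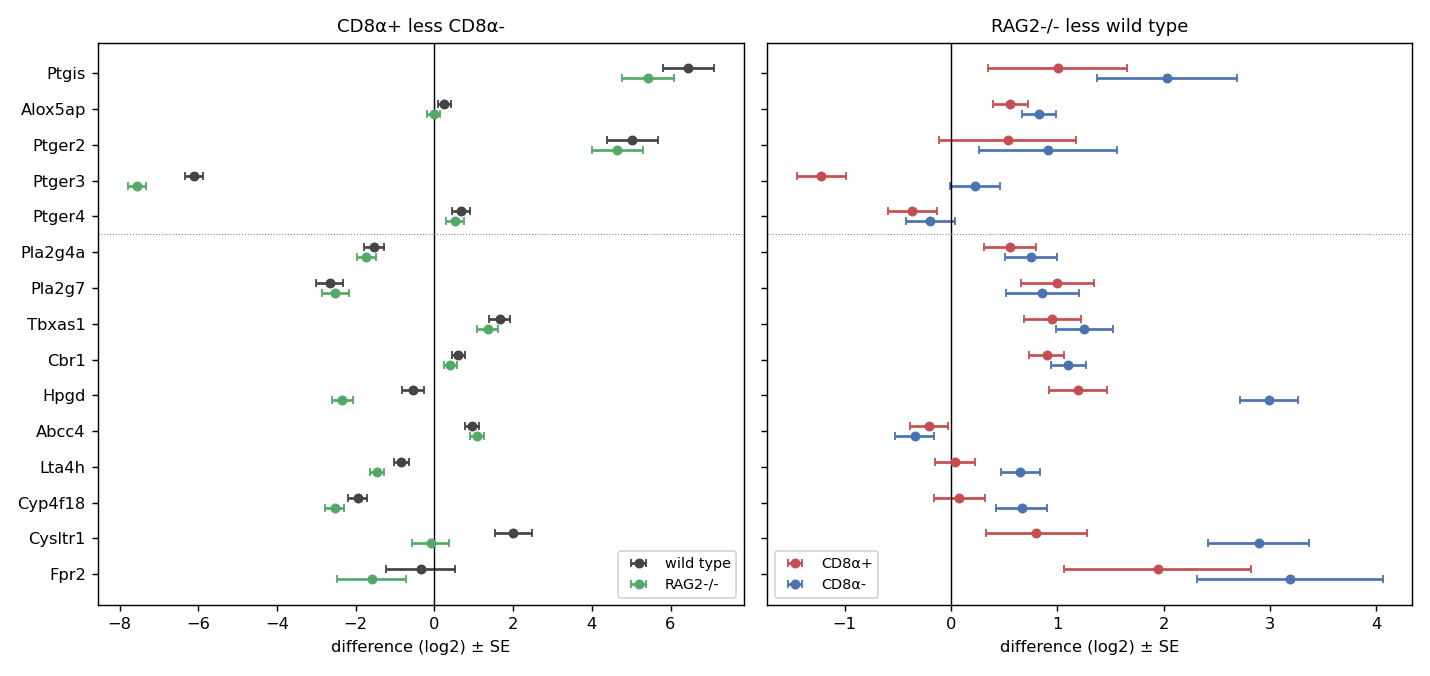
Log2 differences with their standard errors (horizontal axis) for the 5 members above the dotted line and 10 pathway genes below it: CD8α+ less CD8α- cells by genotype on the left, RAG2-/- less wild type by subset on the right. Ptgis, Ptger2 and Ptger3 have subset differences of over 4 in size in both genotypes; the standard errors come from a fit of all 4 groups of 2 arrays.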

How the data were processed

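The deposited values are on a log2 scale, 1 per probe set and array, after normalization by the authors. GCRMA is listed for every array in the submitters' processing notes, and affy beside it for wild type. Neither versions nor the arrays normalized together are stated in the sources used here. Total RNA was labelled with biotin and hybridised to Affymetrix arrays. The number of arrays limits the precision.

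Of 45101 probe sets, 34945 had 1 gene name, 932 several, 9160 none and 64 were array controls. Values were used as deposited. Probe sets at log2 5 or more on at least 2 of 8 arrays were kept, and each gene took its probe set with the highest mean, which left 8763 genes. The 4 groups were fitted with limma 3.58.1 (lmFit, eBayes) in R 4.3.3 without pairing. P-values were 2-sided and Benjamini-Hochberg adjusted over all genes tested, and called means an adjusted p under 0.05. The fit was tested on simulated data. Where the dim group was below 5 on both arrays, a fold is given as at least the bright mean against 5.

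The text names the members with all probe sets, pathway genes that were called or had a group mean of 8 or more, and the 3 genes most correlated with Ptgis and with Ptger3. Marker genes are named as checks of the sort, and Kit was named after its values were seen. The members and lists were chosen with earlier results of these data known. Other settings were quantile normalization, median centring, no filter or a filter at 7, values below 5 set to 5, other uses of a gene's probe sets, limma-trend with robust eBayes, the compared groups alone, the replicate number as a block and leaving out each array. Leaving out both arrays with neutrophil transcripts was added after seeing the data. Where 1 array of a group is left, its spread is taken to equal that of the other groups. Plots were made in Python 3.11.15 (matplotlib 3.10.9).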

Additional observations from a re-analysis of the deposited data

How the results depend on the processing

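With 2 arrays a group, few calls near the threshold are firm. The probe sets of Ptgs2, Ptges, Alox5 and Ltc4s stayed below log2 5, which bounds their signal but not the level of the transcripts. Of the members' values under other settings, 412 counted as unchanged, 22 fell below the threshold, 9 passed it, 11 moved by more than the replicate SD and 16 turned sign. Unchanged means that a tested difference kept its direction and side of the threshold. For the untested subset differences of Ptgis and Ptger3, it means the same direction and a move of less than the replicate SD. Of the pathway genes' values, 480 kept direction and side of the threshold and 65 fell below it. The count of members called was 2 in the wild type subset comparison without a filter (1 to 2 with an array left out) and 0 in the RAG2-/- subset comparison with the compared groups alone. Between genotypes in CD8α- cells it was 5 without a filter, where dim probe sets at the RAG2-/- arrays' shared lowest value enter. It was 1 there with values below 5 set to 5, with each probe set on its own and with the compared groups alone (1 to 3 with an array left out). Between genotypes in CD8α+ cells it was 6 without a filter, 1 with median centring and 1 with the replicate block (1 to 3 with an array left out). It was 3 in CD8α- cells with median centring, and 3 in CD8α+ cells without the arrays with neutrophil transcripts, in place of 2. The check of pairing by replicate number gave correlations of -0.146 to 0.112 between the groups' replicate differences, so the numbers were not used as pairs. With the replicate block, Alox5ap in CD8α+ cells lost its genotype call (limma adjusted p = 0.0532) and Cbr1 its wild type subset call (0.0700), and no other member or pathway call changed. All values that turned sign missed the threshold under both settings. The Ptgis interaction was 0.76 with values below 5 set to 5 and ran from -2.21 to 0.15 with an array left out. The Alox5ap subset difference in RAG2-/- cells was 0.038 with quantile normalization and ran from -0.074 to 0.035 with an array left out. Ptger2 between genotypes in CD8α- cells was -0.23 without both arrays with neutrophil transcripts and ran from -0.23 to 2.05 with an array left out. Its interaction was 0.36 with values below 5 set to 5, 1.06 without both arrays, and ran from -1.52 to 0.76 with an array left out. Ptger3 between genotypes in CD8α- cells was -0.013 with quantile normalization and 0.88 with median centring, and ran from -0.034 to 0.49 with an array left out. Ptger4 between genotypes was 0.47 in CD8α- and 0.31 in CD8α+ cells with median centring, and in CD8α- cells it ran from -0.50 to 0.12 with an array left out. Its interaction ran from -0.48 to 0.14 with an array left out. The cause of these changes was not tested.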
